A study of Mus musculus with 6 samples.

Results

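The genes described here encode the non-collagen glycoproteins of the extracellular matrix and the proteins of elastic fibers. They were 47 genes chosen by name: 10 laminin chains, 4 nidogen, perlecan and agrin genes, fibronectin, 2 fibrillins, 6 fibulins, 6 elastin, microfibril-associated protein and emilin genes, 4 latent TGF-beta binding proteins (LTBPs), 2 tenascins, 4 thrombospondins, 5 other matricellular proteins and 3 further glycoproteins. All 47 were found among the 54232 genes of the count table. The libraries were made from stromal cells of the uterus, in primary culture, of mice aged 8 to 12 weeks at day 4 of pseudopregnancy, and 3 were labelled WT and 3 Pbrm1 cKO. The comparison asked how loss of PBRM1, a bromodomain subunit of the PBAF chromatin remodelling complex, altered RNA levels in these cells.

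The cKO mice carried floxed Pbrm1 alleles (Pbrm1 fl/fl) and Cre expressed from the progesterone receptor locus (PR-IRES-cre), and the methods of the study give the controls, which the labels call WT, as Pbrm1 fl/fl. Cre driven by this locus is active in epithelial as well as stromal cells of the uterus. Horns of 5 to 10 mice were digested for a preparation, and RNA was taken 4 h after plating plus 2 h after a change of medium. The study filtered the digested cells, enriched stromal cells by differential plating and checked their purity by staining for vimentin and cytokeratin. Nothing in the labels ties a library to separate animals, so that p-values measure the spread between these preparations, and in bulk RNA fewer cells of a type and less RNA per cell cannot be told apart. Normalized Pbrm1 counts (counts divided by the size factor of the library) were 1354, 1385 and 1677 in WT and 397, 459 and 451 in cKO, which left 29.6% of the WT mean. Libraries held 13253575 to 18338667 counts, of which the 47 genes took 3.33% to 3.42% in WT and 3.51% to 3.88% in cKO. WT replicate 1 stood apart from the other WT libraries, with 10 of the 47 genes at least 1.5-fold lower than in both of them. The relative spread between libraries (biological coefficient of variation) was 0.166 in WT and only 0.0471 in cKO. The test used a single dispersion per gene for both groups.

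Laminins are trimers of an alpha, a beta and a gamma chain that polymerize into the sheet of the basement membrane, where nidogens and perlecan link them to collagen IV. Elastic fibers consist of an elastin core laid on microfibrils of fibrillin, and fibulins, microfibril-associated proteins and emilins take part in their assembly. LTBPs sit on fibrillin microfibrils and fibronectin, and most of them hold TGF-beta in its latent form. Matricellular proteins such as thrombospondins, tenascins and SPARC modulate adhesion more than they build structure. In the mouse uterus, stromal cells that become decidual cells surround themselves with a matrix rich in laminin and fibronectin.

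Loss of PBRM1 was accompanied by changes in both directions within the matrix genes, and some close relatives changed in opposite directions. Of the 46 genes tested, 18 were higher and 11 lower in cKO at an adjusted p below 0.05 (DESeq2, Benjamini-Hochberg). Among all 17474 genes tested, 31.1% were called, 15.9% higher and 15.2% lower, against 63% of the matrix genes, 39.1% higher and 23.9% lower. Well-measured genes were called more often, with 40.9% called among genes with a mean of at least 50 normalized counts, where 27 of 41 matrix genes were called. At a mean of at least 1000 normalized counts 44.5% of all genes were called, 21.4% higher and 23.1% lower, and 13 of 22 matrix genes were called, 8 higher and 5 lower. The median log2 fold change of the 46 genes was 0.14, beside a median of -0.000744 over all genes tested. It was 0.0132 when a trend of fold change on gene length was removed. With edgeR it was 0.207, but there the low-count gene Vtn was not fitted. The 3 cKO libraries did not overlap the 3 WT libraries for 35 of 46 genes, beside 48.6% of all genes tested. A change of at least 2-fold was reached by 7 genes that rose and 6 that fell, beside 5.76% and 5.31% of all genes tested.

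**Figure D1:**
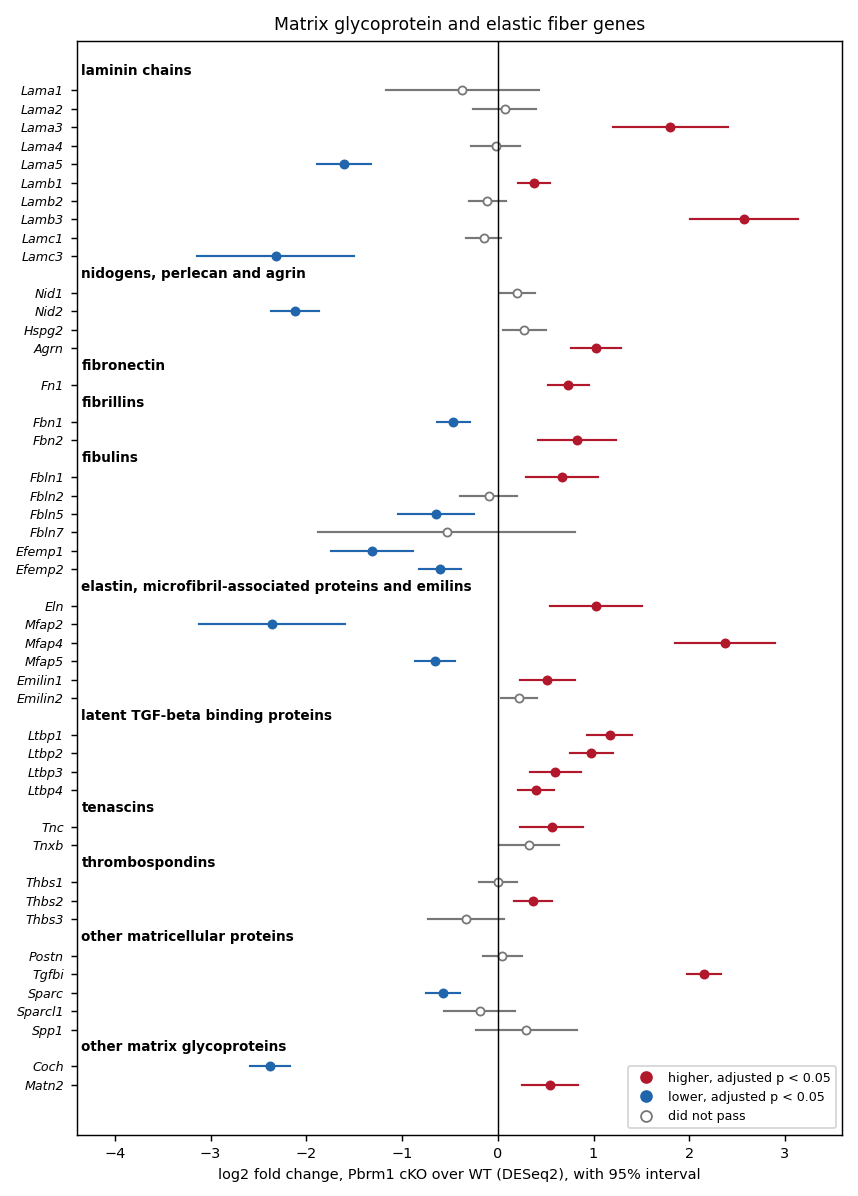
Log2 fold change (Pbrm1 cKO over WT) of 45 matrix genes with its 95% confidence interval, by family. Thbs4, which was not tested, and Vtn, at or under 3 counts in every cKO library, are left out. LTBP genes all lie to the right of 0, whereas laminins, fibulins and microfibril-associated proteins lie on both sides.

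The laminin chains did not move together, with 3 of 10 chains higher, 2 lower and 5 not called. Lama5, on chromosome 2 at 180176373 to 180225859 (minus strand, GRCm38), encodes the alpha5 chain, a main alpha chain of mature epithelial and endothelial basement membranes. Its normalized counts were 1123, 1558 and 1503 in WT and 479, 470 and 424 in cKO. Every cKO library lay far below every WT library, at 32.8% of the WT mean (log2 fold change -1.61 ± 0.15 SE, adjusted p = 4.38e-26). Lamc3, which encodes the gamma3 chain, fell as well, from 44.9, 87.7 and 82.2 to 20.7, 9.59 and 13.1 normalized counts (-2.32 ± 0.42, adjusted p = 3.84e-07).

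Chains of the epithelial laminin that anchors keratinocytes to their basement membrane moved the other way. Lamb3 (chromosome 1, 193207699 to 193343878), the beta3 chain, had 16.0, 36.6 and 40.0 normalized counts in WT and 179, 201 and 172 in cKO, a 5.96-fold difference (adjusted p = 1.6e-17). Lama3 (chromosome 18, 12333819 to 12583013), the alpha3 chain that pairs with it, had 34.2, 107 and 89.7 in WT and 267, 284 and 252 in cKO (log2 fold change 1.80 ± 0.30, adjusted p = 5.32e-08). For both genes the groups were apart, and WT replicate 1 was the lowest library. Without that library the log2 fold changes were 2.26 for Lamb3 and 1.45 for Lama3.

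Summed levels of 18 epithelial markers moved in the same direction as these chains. They were 134, 248 and 232 CPM (counts scaled to the total of the library) in WT and 278 to 291 in cKO, and 6 of 17 tested markers were higher and none lower. Ltf rose most, by 2.84 on the log2 scale. The 11 markers not called included Epcam (log2 fold change 0.09) and Krt18 (-0.27). The part of epithelial cells in the rise of Lama3 and Lamb3 was not tested.

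Of the remaining laminin chains 1 was called. Lamb1, the abundant beta chain, rose from 4191, 3942 and 4411 to 5506, 5563 and 5204 normalized counts, without overlap (0.38 ± 0.09, adjusted p = 0.000111). With the trend on gene length removed, its log2 fold change was 0.24. Lama2 and Lama4, alpha chains of muscle and vessel basement membranes, did not pass the test, with log2 fold changes of 0.07 ± 0.17 and -0.02 ± 0.13. Nor did Lamc1, the common gamma chain (-0.15, adjusted p = 0.234, but 0.00601 with the trend on gene length removed), Lamb2 (-0.11, adjusted p = 0.442) or Lama1 (-0.37, adjusted p = 0.557), whose low counts gave a 95% interval from -1.17 to 0.43.

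Dividing counts by the exonic length of each gene allowed chains to be compared with each other. That length covers all annotated exons, so the shares depend on the annotation. Lama5 made up 64.1 ± 1.62% of the summed per-length level of the 5 alpha chains in WT and 31.8 ± 0.902% in cKO (SD, n = 3). Lama3 went from 3.61 ± 1.42% to 19.7 ± 0.278% of it. The sum of the alpha chains went from 12.9 ± 1.98 to 8.68 ± 0.424 CPM per kilobase, without overlap between the groups. That of the 3 beta chains went from 41.5 ± 1.53 to 51.3 ± 0.956, again without overlap.

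**Figure D2:**
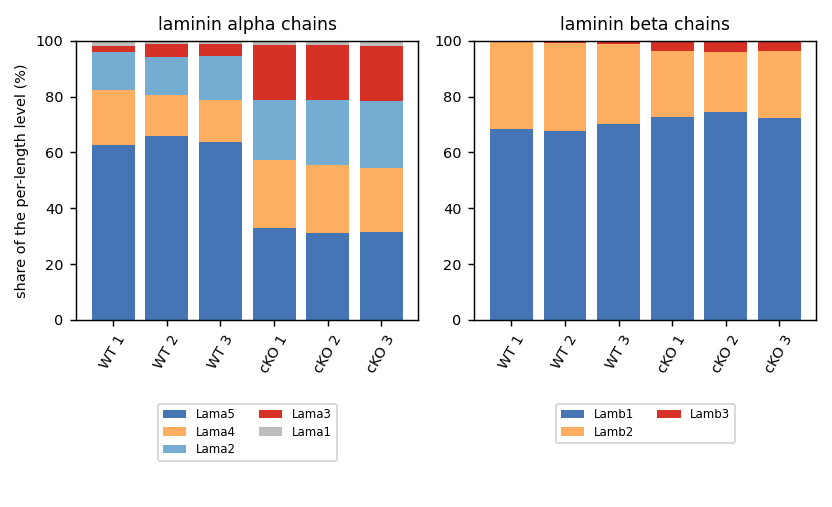
Share of each laminin alpha or beta chain in the summed per-length level of its class (percent, stacked to 100), for each of the 6 libraries. Lama5 fills over 62% of the alpha-chain bar in every WT library and under 33% in every cKO library.

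Of the 4 nidogen, perlecan and agrin genes, 1 was higher, 1 lower and 2 were not called. Nid2 (chromosome 14, 19751265 to 19811787), or nidogen-2, had 887, 969 and 1050 normalized counts in WT and 233, 214 and 222 in cKO. All cKO libraries lay near 23% of the WT mean (log2 fold change -2.12 ± 0.13, adjusted p = 1.95e-60). Nid1, its far more abundant relative, did not pass the test, with 13414, 12801 and 12198 normalized counts in WT and 15353, 15456 and 13465 in cKO (0.20 ± 0.09, adjusted p = 0.0794). Nid2 thus went from 9.24 ± 1.1% to 2 ± 0.171% of the per-length level of the nidogens.

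Agrn (chromosome 4, 156165290 to 156197488) encodes agrin, a heparan sulfate proteoglycan that clusters acetylcholine receptors at the neuromuscular junction and binds laminin. Its normalized counts were 388, 445 and 523 in WT and 955, 874 and 935 in cKO, all of the latter above all of the former (1.03 ± 0.13, adjusted p = 7.46e-13). Hspg2, which encodes perlecan, lay just outside the threshold. It had 7686, 9863 and 7807 normalized counts in WT and 10527, 10157 and 10037 in cKO (0.28 ± 0.11, adjusted p = 0.0502), and WT replicate 2 came close to the cKO libraries. The adjusted p was 0.0342 with TMM scaling and 0.0224 with limma voom. Without WT replicate 2 it was 4.87e-05 at a log2 fold change of 0.40, and with a trend of fold change on gene length removed it was 0.663 at 0.08.

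Endothelial cells make Lama5 and Nid2 as well, and the summed level of 12 endothelial markers was 230, 467 and 469 CPM in WT and 208 to 244 in cKO. Of these markers 1 was higher and 4 were lower in cKO. WT replicate 1 lay within the cKO range for the sum, but not for every marker. Cdh5, the cadherin of endothelial junctions, had 774, 713 and 677 normalized counts in WT and 190.4, 192 and 201 in cKO, whereas Vwf, the von Willebrand factor, rose from 21.4, 67.7 and 69.2 to 192, 210.1 and 187. Emcn, or endomucin, fell from 274, 1615 and 1327 to 267, 284 and 243, and WT replicate 1 lay within the cKO range. The other called markers, Egfl7 and Flt1, fell by 1.82 and 0.61 on the log2 scale. The part of endothelial cells in the fall of Lama5 and Nid2 was not tested.

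**Figure D3:**
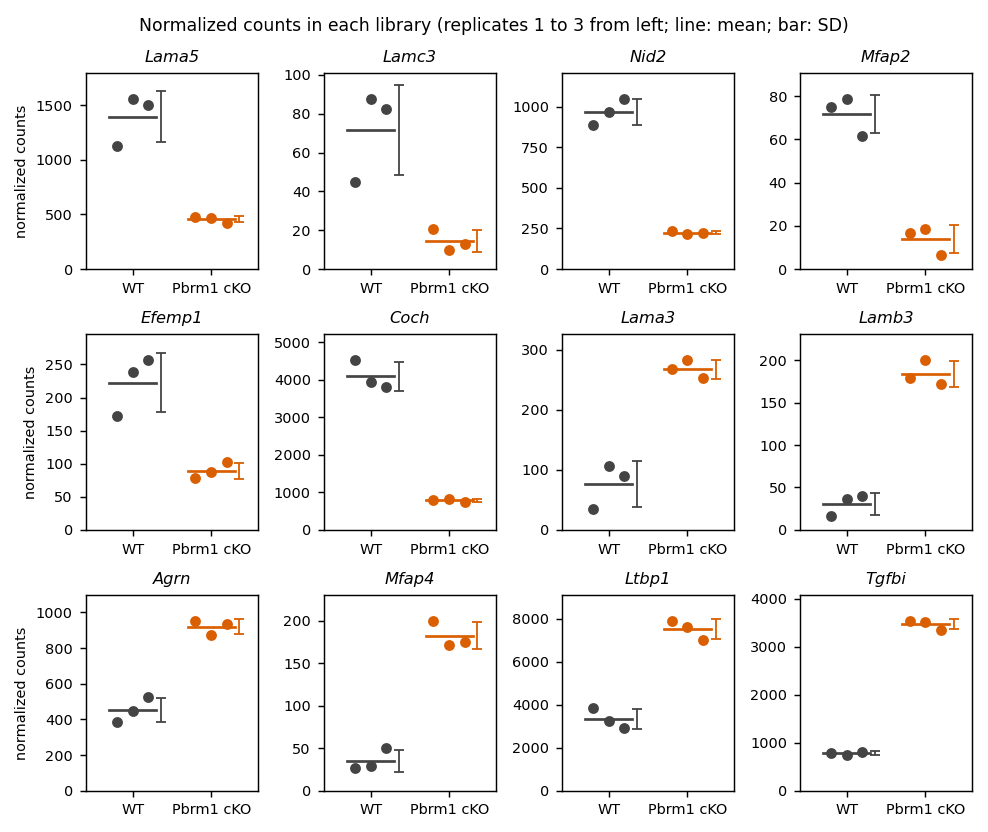
Normalized counts in each library for 12 matrix genes with a change of 2-fold or more (points: replicates 1 to 3 from the left, line: mean, bar: SD). In none of the 12 genes do the WT and cKO libraries overlap, and the WT points of Lama3, Lamb3, Lama5 and Lamc3 include 1 low library, WT replicate 1.

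Fn1 (chromosome 1, 71585520 to 71653200) encodes fibronectin, the adhesive glycoprotein on which many other matrix proteins assemble. Its normalized counts were 9271, 10544 and 11854 in WT and 17575, 18379 and 16838 in cKO. Every cKO library exceeded every WT library (0.74 ± 0.11, adjusted p = 2.71e-10).

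Genes of the elastic fiber moved in both directions, its fibrillins included. Fbn1 encodes fibrillin-1, the main microfibril protein of adult tissue, and fell from 5019, 5501 and 5724 normalized counts to 4017, 3902 and 3854 (-0.46 ± 0.09, adjusted p = 1.52e-06). Fbn2 encodes fibrillin-2, which predominates in the embryo, and rose from 118, 186 and 211 to 312, 308 and 294 (0.83 ± 0.21, adjusted p = 0.00048). The groups were apart for both fibrillins. By per-length level, Fbn2 remained the minor fibrillin, at 3.5 ± 0.762% in WT and 8.23 ± 0.129% in cKO. Eln (chromosome 5, 134702593 to 134747323), the gene of the elastin core, rose from 113, 201 and 255 to 422, 404 and 333 normalized counts (1.03 ± 0.25, adjusted p = 0.000257), and WT replicate 1 was again the lowest library.

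Genes of microfibril-associated proteins also moved in both directions. Mfap2 and Mfap5 encode small glycoproteins that bind fibrillin, whereas Mfap4 encodes a fibrinogen-domain protein that binds elastin and fibrillin. Mfap4 (chromosome 11, 61485431 to 61488900) had 26.7, 28.9 and 49.7 normalized counts in WT and 200, 171 and 175 in cKO, which was 5.19-fold higher (adjusted p = 2.12e-17). Mfap2 (chromosome 4, 141010418 to 141015984) had 74.8, 78.8 and 61.6 in WT and 16.8, 18.4 and 6.57 in cKO (-2.36 ± 0.39, adjusted p = 2.54e-08). Both were low genes with no overlap between groups. Mfap5, which carried 92.2% of the per-length level of the family in WT, fell from 2939, 3646 and 3346 to 2125, 2179 and 2010 normalized counts (-0.65 ± 0.11). Smooth muscle makes Mfap4 as well, and its markers summed to 3850 to 4170 CPM in WT and 3680 to 3820 in cKO, a sum set mainly by Tagln and Des. None of 10 tested markers was higher and 5 were lower, with a median log2 fold change of -0.60, among them Mylk (-2.04), Synpo2 (-1.51) and Acta2 (-0.97). The part of smooth muscle in these changes was not tested.

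The fibulins, which bridge elastin and microfibrils, counted 3 lower and 1 higher among 6 genes. Efemp1 (chromosome 11, 28853204 to 28926743), or fibulin-3, fell from 172, 239 and 257 to 77.9, 87.9 and 102 normalized counts (-1.32 ± 0.22, adjusted p = 2.94e-08). Efemp2, or fibulin-4, and Fbln5 are both needed for elastin to be deposited and crosslinked, and their libraries did not overlap. Efemp2 fell from 1631, 1372 and 1453 to 1032, 998 and 909 normalized counts (-0.60 ± 0.11), and Fbln5 from 279, 204 and 230 to 181, 125 and 152 (-0.65 ± 0.20). The adjusted p of Fbln5 was 0.00635, the nearest to the threshold among the called genes of the set, and 0.0908 without Pbrm1 cKO replicate 2. Fbln1 rose from 142, 202 and 169 to 292, 299 and 224 (0.67 ± 0.19, adjusted p = 0.00292), and without that same library its adjusted p was 0.0587. Fbln2, the most abundant fibulin per length, did not pass the test (-0.10, adjusted p = 0.705), and neither did Fbln7 (adjusted p = 0.627), which had at most 27.0 normalized counts.

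Emilins line the interface of elastin and microfibrils. Emilin1 rose from 548, 453 and 645 to 846, 755 and 753 normalized counts (0.52 ± 0.15, adjusted p = 0.00248). Emilin2 had 6306 ± 479 in WT and 7331 ± 424 in cKO and did not pass the test (adjusted p = 0.0689), although its libraries did not overlap.

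The LTBPs were the single family of 3 or more genes here in which every gene moved the same way, with 4 of 4 higher. Ltbp1 (chromosome 17, 75005568 to 75392512) had 3835, 3251 and 2938 normalized counts in WT and 7908, 7615 and 6987 in cKO (2.25-fold, adjusted p = 2.64e-21). Ltbp2 (chromosome 12, 84783212 to 84876532), which does not bind latent TGF-beta, had 1414, 1194 and 1097 in WT and 2434, 2374 and 2494 in cKO (log2 fold change 0.98 ± 0.11, adjusted p = 8.1e-16). In both genes the lowest cKO library lay well above the highest WT library. Ltbp3 and Ltbp4 rose less, again without overlap. Ltbp3 had 301, 287 and 246 normalized counts in WT and 437, 412 and 418 in cKO (0.60 ± 0.14), and Ltbp4 had 1102, 1105 and 1170 in WT and 1567, 1454 and 1428 in cKO (0.40 ± 0.10). The summed per-length level of the family was 47.2 ± 4.18 in WT and 90.8 ± 3.06 CPM per kilobase in cKO. Relative to the summed fibrillins, it was 1.52 ± 0.257 in WT and 3.75 ± 0.0694 in cKO. That ratio leaves out fibronectin, on which LTBPs also sit. Fn1 rose along with the LTBPs, from 61.2 ± 7.58 to 103 ± 3.83 CPM per kilobase.

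Tnc (chromosome 4, 63959785 to 64047015) encodes tenascin-C, a large adhesion-modulating protein of remodelling tissue. It had 25881, 41121 and 42809 normalized counts in WT and 56979, 54521 and 50696 in cKO (0.56 ± 0.17, adjusted p = 0.00392). WT replicate 1 was far lower than the other WT libraries, and without it the log2 fold change was 0.36 (adjusted p = 3.38e-05). Tnxb, or tenascin-X, did not pass the test (0.32 ± 0.16, adjusted p = 0.117), but did with edgeR (adjusted p = 0.0493) and with limma voom (adjusted p = 0.0491).

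Thrombospondins bind calcium, cell receptors such as CD36 and CD47, and, in the case of thrombospondin-1, latent TGF-beta. Thbs1 (chromosome 2, 118111876 to 118127133) was by far the most abundant gene of the set and did not pass the test, at 252425, 209981 and 219170 normalized counts in WT and 238359, 233882 and 211578 in cKO. The 95% confidence interval of its log2 fold change ran from -0.20 to 0.20. Thbs2, its close relative, rose from 84750, 95406 and 100017 to 128679, 120943 and 110997 (0.36 ± 0.10, adjusted p = 0.00175). Thbs3 did not pass (-0.33 ± 0.20, adjusted p = 0.218), and Thbs4 had at most 2 counts in any library and was not tested.

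Among the other matricellular proteins, Tgfbi and Sparc moved apart while Postn did not pass the test. Tgfbi (chromosome 13, 56609523 to 56639562) encodes an integrin-binding protein named for its induction by TGF-beta. It had 790, 740 and 812 normalized counts in WT and 3544, 3503 and 3352 in cKO, a 4.44-fold difference with a tight spread in both groups (adjusted p = 4.2e-120). Macrophages also make this protein, and the summed level of 16 leukocyte markers was 299, 653 and 628 CPM in WT and 2730 to 2870 in cKO, with 14 of 15 tested markers higher. The part of leukocytes in the difference between groups was not tested.

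Sparc (chromosome 11, 55394500 to 55423183) encodes osteonectin, a collagen-binding protein. It fell from 42007, 45230 and 48620 to 31073, 31169 and 29175 normalized counts, with the groups apart (-0.57 ± 0.09, adjusted p = 2.37e-09). Postn, or periostin, was level at 1835 ± 154 and 1896 ± 90.5 (SD, n = 3), with a 95% interval of the log2 fold change from -0.15 to 0.25. Spp1, or osteopontin, did not pass the test (0.30 ± 0.27, adjusted p = 0.448), and 18.8% of its exonic bases are shared with another gene model on the same strand. Sparcl1, a relative of Sparc, did not pass either (-0.19 ± 0.19, adjusted p = 0.515). Both Spp1 and Sparcl1 were lowest in WT replicate 1, with 227 and 1827 normalized counts against at least 567 and 3041 in the other WT libraries, and without that library Sparcl1 passed at -0.41 (adjusted p = 8.3e-05) and the log2 fold change of Spp1 was -0.02.

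Coch (chromosome 12, 51593341 to 51605771) was among the genes with the deepest falls, beside Mfap2 and Lamc3. It encodes cochlin, a secreted protein best known from the inner ear. Its normalized counts were 4540, 3933 and 3800 in WT and 789, 824 and 744 in cKO, so that 19.2% of the WT mean remained (-2.38 ± 0.11, adjusted p = 2.94e-105). Matn2, or matrilin-2, a filament-forming adaptor of the matrix, rose from 340, 267 and 279 to 471, 420 and 402 normalized counts (0.54 ± 0.15, adjusted p = 0.00161). Vtn, or vitronectin, a plasma glycoprotein made mainly by the liver, had 2, 7 and 4 raw counts in WT and 0, 2 and 3 in cKO, which did not allow a difference to be detected at this depth.

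Per-length levels allowed the genes to be ordered. Thbs1 led at 2533 ± 240 CPM per kilobase in WT and 2573 ± 142 in cKO (SD, n = 3), clear of every other gene. Thbs2 (903 ± 77.8) and Sparc (810 ± 60.5) followed in WT, and their libraries overlapped. In cKO, Thbs2 (1177 ± 78.8) lay above Sparc (552 ± 16). Thbs1, Thbs2, Tnc and Sparc together took 80.6% of the counts of the set in WT and 79.7% in cKO. Coch moved from rank 8 to rank 20, whereas Tgfbi moved from rank 20 to rank 9 and Ltbp1 from rank 17 to rank 11. Mfap2 moved from rank 28 to rank 42, Nid2 from rank 21 to rank 32 and Mfap4 from rank 38 to rank 26. In WT the libraries of Tgfbi, Ltbp1, Mfap2, Nid2 and Mfap4 overlapped those of the gene ranked next, so these ranks are approximate.

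**Figure D4:**
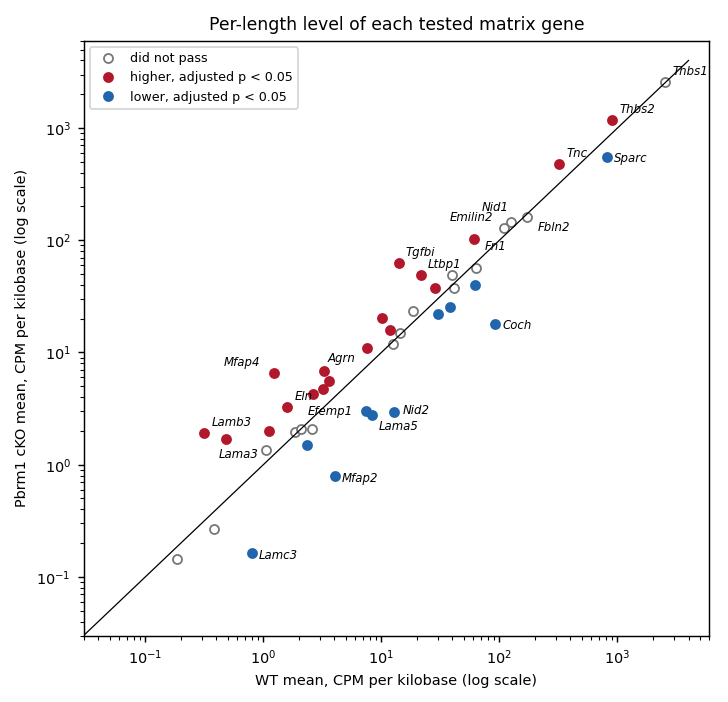
Mean per-length level in WT (horizontal) and Pbrm1 cKO (vertical), in CPM per kilobase on log axes, for each tested gene except Vtn. Vtn, at or under 3 counts in every cKO library, is left out. The line marks equal levels. Thbs1 lies on it, while Coch, Nid2, Lama5 and Mfap2 lie below it and Tgfbi, Ltbp1, Mfap4, Lama3 and Lamb3 above.

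Promoter windows of RefSeq (GRCm38.p6, 250 bases before to 50 after the transcription start) were matched for 33 of the 47 genes. Those of 3 genes with strong changes in either direction, of agrin and of the most changed LTBPs are printed 5′ to 3′ on the strand of the gene. Capitals mark matches, on either strand, to the TATA box motif TATAAA, the GC box motif GGGCGG, the AP-1 motif TGANTCA or the TEAD motif CATTCC. Lama5 is at chr2:180225810-180226109 (minus strand), Agrn at chr4:156197439-156197738 (minus strand), Coch at chr12:51593091-51593390 (plus strand), Tgfbi at chr13:56609336-56609635 (plus strand), Ltbp1 at chr17:75005279-75005578 (plus strand) and Ltbp2 at chr12:84876442-84876741 (minus strand).
Lama5: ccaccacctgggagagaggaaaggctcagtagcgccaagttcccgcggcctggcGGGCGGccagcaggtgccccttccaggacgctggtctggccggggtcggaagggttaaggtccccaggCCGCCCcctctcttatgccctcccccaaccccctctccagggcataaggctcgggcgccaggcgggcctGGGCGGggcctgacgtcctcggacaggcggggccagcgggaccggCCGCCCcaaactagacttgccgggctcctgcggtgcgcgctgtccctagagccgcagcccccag
Agrn: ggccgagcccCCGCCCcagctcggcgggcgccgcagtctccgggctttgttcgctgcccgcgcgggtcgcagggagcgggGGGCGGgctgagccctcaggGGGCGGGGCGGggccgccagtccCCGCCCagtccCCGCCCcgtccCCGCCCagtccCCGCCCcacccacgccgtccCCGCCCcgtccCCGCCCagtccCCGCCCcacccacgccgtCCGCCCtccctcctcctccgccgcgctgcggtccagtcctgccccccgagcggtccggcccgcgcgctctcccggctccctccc
Coch: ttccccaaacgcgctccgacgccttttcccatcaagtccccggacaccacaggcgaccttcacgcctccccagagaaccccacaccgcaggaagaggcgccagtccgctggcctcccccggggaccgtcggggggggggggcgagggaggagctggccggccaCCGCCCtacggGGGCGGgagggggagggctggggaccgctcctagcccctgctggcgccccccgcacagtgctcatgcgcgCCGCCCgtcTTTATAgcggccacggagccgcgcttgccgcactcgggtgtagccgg
Tgfbi: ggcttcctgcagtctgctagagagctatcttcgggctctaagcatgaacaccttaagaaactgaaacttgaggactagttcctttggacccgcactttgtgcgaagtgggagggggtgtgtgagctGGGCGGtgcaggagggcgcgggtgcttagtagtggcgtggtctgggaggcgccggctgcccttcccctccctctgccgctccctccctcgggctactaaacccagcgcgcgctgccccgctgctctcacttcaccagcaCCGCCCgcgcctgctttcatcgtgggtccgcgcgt
Ltbp1: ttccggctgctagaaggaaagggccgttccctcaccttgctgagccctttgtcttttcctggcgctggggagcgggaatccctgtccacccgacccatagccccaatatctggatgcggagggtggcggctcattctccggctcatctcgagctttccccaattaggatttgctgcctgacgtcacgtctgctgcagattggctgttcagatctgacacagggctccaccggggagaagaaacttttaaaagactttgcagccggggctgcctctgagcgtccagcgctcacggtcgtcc
Ltbp2: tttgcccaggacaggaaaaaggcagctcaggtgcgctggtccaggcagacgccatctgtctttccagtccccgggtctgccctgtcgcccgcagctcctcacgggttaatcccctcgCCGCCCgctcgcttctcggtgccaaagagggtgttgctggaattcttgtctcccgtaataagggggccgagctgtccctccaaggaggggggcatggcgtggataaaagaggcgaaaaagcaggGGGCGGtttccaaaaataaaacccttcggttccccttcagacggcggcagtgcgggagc

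GC boxes were the motif held by most of the printed windows. Agrn held 12 GC boxes in a window of 83.3% GC and Lama5 held 4 at 72.7% GC, and these genes moved in opposite directions. Coch held 3 GC boxes and a TATA box, Tgfbi and Ltbp2 held 2 GC boxes each, and Ltbp1 held no match to any of the motifs. GC boxes were present in 19 of the 33 windows, beside 35.7% of 32851 windows of the same length, and in 6 of 12 windows of higher and 6 of 8 of lower genes. TATA boxes were present in 6 of 33 windows (13.6% of all), AP-1 sites in 3 (7.81% of all) and TEAD sites in 6 (14.7% of all). A match is a description of the sequence and not evidence of a bound factor.

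Genes that act on this matrix were counted from lists of related function. Such counts are to be read beside all genes tested, of which 15.9% were higher and 15.2% lower. Of 20 genes of crosslinking and elastic fiber assembly, 3 were higher and 4 lower, with a median log2 fold change of -0.02. Thsd4, which encodes a promoter of microfibril assembly, rose from 223, 323 and 322 to 1066, 1016 and 1013 normalized counts (1.83). Furin, a proprotein convertase that processes fibrillin and TGF-beta, rose by 0.80 and Loxl4, a lysyl oxidase, fell by 0.79 on the log2 scale. Lox, the main elastin crosslinker, did not pass the test (0.17, adjusted p = 0.148), and neither did Loxl1 (0.05). Among other matrix glycoproteins 5 were higher and 13 lower of 44 tested, with a median of -0.24. Pcolce, an enhancer of procollagen processing, fell from 353, 405 and 428 to 85.8, 104 and 98.5 normalized counts (-2.04), and Tinagl1, a basement membrane protein, from 2907, 1746 and 1869 to 800.1, 765 and 743. Spon2, or spondin-2, fell by 1.40 on the log2 scale.

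Of 25 receptors for laminin, fibronectin and thrombospondin, 9 were higher and 8 lower. Cd36, a thrombospondin and lipid receptor of macrophages and capillaries, had 723, 2413 and 2364 normalized counts in WT and 5348, 5234 and 5383 in cKO (1.54, adjusted p = 0.012). Itgb4, the beta4 integrin that holds epithelium to laminin with the alpha3 chain, rose by 1.45, and the syndecan Sdc2 fell by 1.29 on the log2 scale. Of 10 genes of TGF-beta ligands and their activation, 5 were higher and 3 lower. Tgfb1 rose from 145, 224 and 390 to 797, 807 and 712 normalized counts (1.61), Nrros, a carrier of latent TGF-beta on myeloid cells, rose by 1.79, and the coreceptor Tgfbr3 fell by 1.03. Tgfb1, Nrros and Cd36 moved with the leukocyte sum, and its part in them was not tested.

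**Figure D5:**
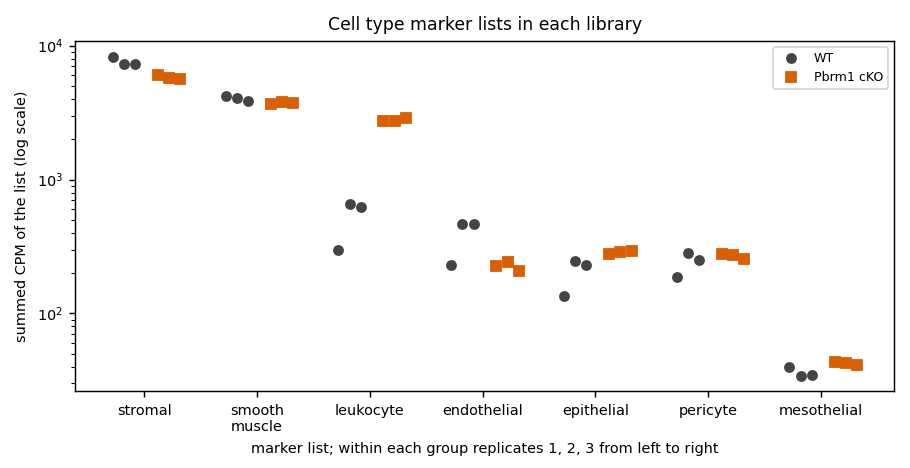
Summed CPM of the marker lists of 7 cell types in each library (log axis, 1 point per library). Leukocyte markers of all cKO libraries lie above those of all WT libraries, stromal markers below, and endothelial markers of WT replicate 1 lie within the cKO range.

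Stromal markers themselves were abundant in every library, with a summed level of 7280 to 8270 CPM in WT and 5670 to 5990 in cKO, and 8 of 14 were lower and 1 higher. Sparc, Fbn1, Mfap5, Nid2, Coch and Lama5 fell together with this sum, and its part in them was not tested. Of the markers, Foxa2 (epithelium), Myocd and Casq2 (smooth muscle) and Nkg7 (leukocytes) had at most 3 counts in every library, a level of 0.164 to 0.226 CPM at these depths. Mesothelial markers summed to 34.4 to 39.7 CPM in WT and 41 to 43.1 in cKO with none of 6 called, and pericyte markers to 186 to 282 and 256 to 277 with 1 of 6 higher and 1 lower.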

How the data were processed

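RNA-seq counts per gene were deposited by the authors as 1 table of the 6 libraries. The authors trimmed reads with cutadapt, aligned them with HISAT2 to GRCm38.p5 and counted reads on exons of GENCODE mouse release 18 with featureCounts 1.6.4, with the option (-s 2) for reverse-stranded reads. The labels describe total RNA primed with random and poly(T) primers, followed by targeted transcript depletion, whereas the methods of the study describe poly(A) selection. Values were tested as raw counts.

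DESeq2 1.42.0 (R 4.3.3) was fitted to the 28552 of 54232 genes with a count in at least 1 library. Group was the single term (the study names DESeq2 but no design formula). The Wald test was adjusted by Benjamini-Hochberg with independent filtering. Called means an adjusted p below 0.05. Symbols were matched for 99.7% of identifiers. Depth was 13253575 to 18338667 counts, and 3 counts, or 0.164 to 0.226 CPM, were taken as the floor. Per-length levels are CPM divided by the exonic kilobases in the deposited table. Normalized counts, ± SE of a log2 fold change and ± SD of a level are given throughout.

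The genes and lists were chosen with earlier results of these data known. Genes outside the 47 were named by a rule: at most the 3 largest called changes per list with a mean of at least 50 normalized counts, and markers whose level is needed beside a result. Lox, Loxl1, Tagln, Des, Egfl7, Flt1, Epcam and Krt18 were chosen after their values were seen. Alternatives were edgeR 4.0.16, limma 3.58.1, other scaling and filters, a replicate block and leaving out each library. Scripts were tested on simulated data.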

Additional observations from a re-analysis of the deposited data

How the results depend on the processing

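No called gene changed sign under 14 alternatives, and the count of 18 higher and 11 lower genes ranged from 17 to 20 and from 10 to 13 when each library was left out in turn. When tested for exceeding 0.58 on the log2 scale (adjusted p of 0.1), 7 were higher and 6 lower, since this test asks for a larger change, and among all genes 699 and 563 were called in place of 2774 and 2658. Of the 29 called genes, 27 passed under every other alternative, and the exceptions were Fbln1 (0.60) and Fbln5 (-0.52) without Pbrm1 cKO replicate 2. The median log2 fold change was 0.21 with edgeR (0.207), 0.206 with voom, 0.2 with a minimum of 10 counts in 3 libraries and 0.0132 with the trend on gene length removed, and 0.0908 to 0.177 when a library was left out. With edgeR, voom and the count minimum the median is that of 45 genes, since Vtn was not fitted. In the main fit the middle value of these 45 genes is that of Nid1, 0.205, so leaving out Vtn alone raises the median. For the trend on length the cause was not tested. That trend also moved Lamb1 to 0.24 (adjusted p = 0.0117). Without WT replicate 1, Nid1 (adjusted p = 0.0207), Emilin2 (0.0026), Thbs3 (0.0445) and Sparcl1 passed, and Eln was 0.76. Nid1 also passed without Pbrm1 cKO replicate 3 (0.03) and Emilin2 with the length trend removed (0.0242).

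Replicate numbers did not pair the samples: same-numbered libraries correlated at 0.114, -0.0515 and 0.0028 in their deviations from the group means. With a replicate block, 18 genes were higher and 11 lower with a median of 0.146, and among all genes 2175 and 1828 were called. Depth limited Thbs4 and Vtn, at or near 3 counts.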
